A study of Arabidopsis thaliana with 12 samples.

Results

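Libraries labelled as white cotyledons of *gun1-102* (*gun1W*) were compared with libraries labelled as cotyledons of the wild type Col-0, for nuclear genes of growth, the cell wall, transport, hormones and secondary metabolism. The members were the libraries that the column names give as white *gun1-102* and as Col-0, which were 6 of 12 libraries, 3 in each group. In them, 17675 nuclear gene models were measured well enough to be tested. Of these, 644 belonged to 43 lists of genes with a known role, 36 of processes and 7 of cell type markers, and the account below follows the lists. Genes of light harvesting, heat shock and dark starvation were left out of the ranking of the largest changes, and light harvesting genes appear only among the mesophyll markers. The transcript of *GUN1* itself (AT2G31400) had 39.3, 33.3 and 25.7 scaled TPM in *gun1W*, against 46.1, 44 and 46.4 in Col-0, a log2 fold change of −0.48 ± 0.20 SE (adjusted p = 0.0898) that was not called. The position of the insertion was not read here, and a transcript can persist beside an insertion, so that this level does not check the genotype.

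All seedlings were *Arabidopsis thaliana* of the Col-0 ecotype, raised to day 4 on half-strength MS medium with 1% sucrose, at 22 °C with 16 h of light (at 100 µmol photons m−2 s−1) followed by 8 h of dark. The mutant allele *gun1-102* is a T-DNA insertion in the gene for GUN1, a plastid protein, and white (*gun1W*), marbled (*gun1M*) and green (*gun1G*) cotyledons appeared among seedlings of this 1 line, so that *gun1W* was picked by its colour and not by its genotype. Total RNA was depleted of rRNA and sequenced from stranded libraries, and *gun1M* and *gun1G* (3 libraries each) serve here only to show where *gun1W* differed from other seedlings of the same mutant. The column names call the 3 libraries of a group biological replicates, while separate sowings or harvests are not named, and the p-values measure only the spread between these libraries, which may be technical.

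Plastids send signals to the nucleus, and seedlings whose plastids fail to develop change the expression of many nuclear genes, of which those for photosynthesis are the best known. Cotyledons of light-grown seedlings expand by cell growth, which loosens the wall, takes in water and solutes, and is steered by auxin, gibberellin and brassinosteroid together with the PHYTOCHROME-INTERACTING FACTORS (PIF), a family of bHLH transcription factors. Plants under chemical or oxidative stress switch on another programme, in which toxic molecules are coupled to sugars or glutathione and pumped out of the cytosol.

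Values are TPM, a transcript level per length and per library, summed per gene and multiplied by 1 factor per library, so that the median nuclear gene was level across libraries, and are called scaled TPM below. The factors were 0.691, 0.604 and 0.538 in the *gun1W* libraries, against 1.21, 1.34 and 1.22 in the Col-0 libraries. Plastid transcripts took 9.29 to 12.5% of all TPM in *gun1W* libraries and 34.5 to 37.8% in Col-0 libraries, which leaves more room for nuclear transcripts in *gun1W*. A nuclear gene that is level in scaled TPM is therefore higher in *gun1W* in TPM as deposited, where the median nuclear gene was 0.82 higher on the log2 scale, and every difference below is relative to the median nuclear gene. TPM keeps no depth, so that how many reads lie behind each value is unknown. 1 nuclear gene model of a short RNA, AT3G06365, took 4.02 to 19.5% of all TPM in *gun1W* and 5.71 to 8.46% in Col-0. Libraries correlated with others of their group at a Pearson r of at least 0.936 in *gun1W* and 0.962 in Col-0 over the tested nuclear genes, and between the 2 groups at 0.901 at most.

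A gene was called higher or lower in *gun1W* at an adjusted p under 0.05 and a difference of at least 1 in log2(scaled TPM + 1), which understates the change of low genes. The values per library are given in the order of replicates 1, 2 and 3. Of all tested nuclear genes, 1289 were called higher, which is 7.29%, and 766 were called lower, which is 4.33%. All 3 *gun1W* libraries lay above all 3 Col-0 libraries for 23.4% of the nuclear genes and below them for 22.1%. Lists are read against these shares. The plot of all list members by fold change shows that auxin response genes lay to the left of 0 and detoxification, jasmonate and flavonoid genes to the right.

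**Figure D1:**
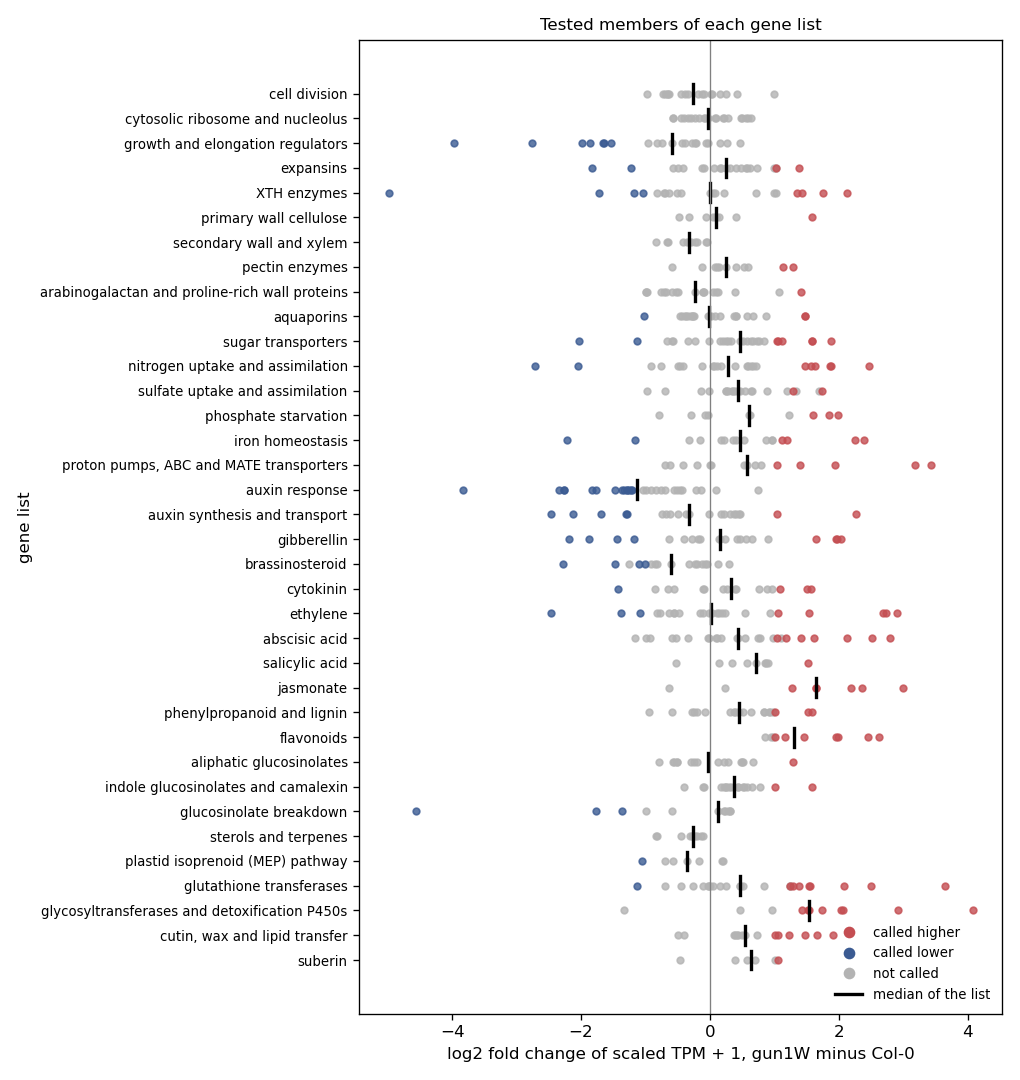
Each point is 1 tested gene, placed by its log2 fold change of scaled TPM + 1 (*gun1W* minus Col-0, horizontal axis) in the row of its list. Red points were called higher, blue points called lower and grey points not called, and the black bar is the median of the list, which was −1.13 for auxin response and 1.54 for glycosyltransferases and detoxification P450s.

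The labels give the tissue as cotyledon, and the markers of other organs were read to see what the libraries held. The 4 mesophyll markers were abundant in both groups, and each lay below Col-0 in every *gun1W* library. Their summed level was 16886, 15971 and 18848 scaled TPM in *gun1W* and 25653, 28461 and 26847 in Col-0, and their median log2 fold change was −0.70. *CAB3*, a light harvesting gene, was called, with 571, 447 and 473 in *gun1W* and 1289, 1582 and 1449.6 in Col-0 (log2 fold change −1.54 ± 0.18 SE, adjusted p = 0.000131). *RBCS1A*, the small subunit of Rubisco, had 13321, 13035 and 15828 scaled TPM in *gun1W* and 20631, 22841 and 21558 in Col-0. Root markers were present too. *CASP1*, which marks the root endodermis by its Casparian strip, had 62.1, 71.6 and 59.3 scaled TPM in *gun1W* and 66.3, 69.4 and 47.1 in Col-0, and none of 6 endodermis markers and none of 6 root hair markers was called (1 root hair marker was lower without *gun1W* replicate 1). Transcripts of root genes were thus present in both groups. The study describes its material as seedlings, and whether cotyledons alone or whole seedlings were extracted is not settled by the labels. The summed level of the 6 endodermis markers was 108 to 132 in *gun1W* and 109 to 144 in Col-0, and that of the root hair markers 145 to 464 in *gun1W* and 344 to 525 in Col-0. *gun1W* replicate 1 held the most of both kinds among the *gun1W* libraries. *MYB66*, *CLV3*, *WUS*, *KNAT2*, *CUC1* and *CUC2*, which mark the root epidermis and the shoot meristem, were below the filter on low values. The part of the tissue makeup in the results was not tested, and fewer cells of a type and less RNA per cell cannot be told apart in such bulk RNA.

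Of the other cell type markers, single genes were called. *KAT1*, a potassium channel of guard cells, had 2.36, 1.69 and 0.78 scaled TPM in *gun1W* and 7.91, 8.92 and 9.8 in Col-0 (log2 fold change −1.96 ± 0.24 SE, adjusted p = 0.000204). It was 1 of 9 tested markers of the stomatal lineage, and the other 8 were not called (1 was higher without *gun1W* replicate 1 or without Col-0 replicate 2 or 3), among them *TMM*, a receptor of the stomatal lineage, with 5.79, 6.67 and 7.09 in *gun1W* and 3.86, 5.78 and 4.3 in Col-0. *PP2-A1*, a phloem lectin, was lower, with 2.97, 2.93 and 1.98 in *gun1W* and 9.87, 12.2 and 24 in Col-0 (log2 fold change −2.09 ± 0.28 SE, adjusted p = 0.000363). *SUC2*, the sucrose transporter of phloem companion cells, was not called, with 14.1, 11.7 and 15.6 in *gun1W* and 14.7, 17.8 and 16.5 in Col-0. The other phloem markers, *APL* (−0.65 on the log2 scale) and *SEOR1* (−0.37), were not called either. Of the 4 phloem markers, 3 were lower in every *gun1W* library than in every Col-0 library, and the list median was −0.51.

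The 10 largest increases by the rule held genes of varied and partly unknown role. *BCB*, a blue copper-binding protein of the cell surface (chr5:6826365-6827748 in TAIR10.1), had 95, 102 and 65.4 scaled TPM in *gun1W* and 0.758, 0.577 and 3.41 in Col-0 (log2 fold change 5.24 ± 0.47 SE, adjusted p = 2.43e-05). *GolS1*, galactinol synthase, the first enzyme of raffinose sugar synthesis (chr2:19368798-19370478), had 73.9, 139 and 131 scaled TPM in *gun1W* and 5.77, 3.81 and 3 in Col-0 (log2 fold change 4.46 ± 0.32 SE, adjusted p = 4.86e-06). The zinc finger repressors *STZ* (chr1:9648021-9649323) and *RHL41*, also known as *ZAT12* (chr5:24102814-24103794), both known from cold, light and salt stress, rose too. *STZ* had 31.7, 37.1 and 27.3 in *gun1W* and 0.929, 0.762 and 0.534 in Col-0, and *RHL41* had 21.9, 51.2 and 37.6 in *gun1W* and 1.31, 1.03 and 0.149 in Col-0 (log2 fold changes of 4.24 and 4.36). For *BCB* and these 3 genes every *gun1W* library lay far above every Col-0 library. *AT1G15010* (chr1:5171181-5171956), *AT5G42760*, a putative methyltransferase (chr5:17148808-17150451), and *AT1G65490*, an uncharacterized protein (chr1:24354646-24355490), were higher by 4.81, 4.33 and 4.12 on the log2 scale. *AT1G22810*, a small ERF-type transcription factor gene (chr1:8074231-8075037), was listed at 0 in every Col-0 library and had 21.6, 14.2 and 16.2 in *gun1W*. *SNOR95*, a small nucleolar RNA (chr1:9076048-9076182), was also listed at 0 in Col-0 and had 7.96, 32.7 and 12.6 in *gun1W*.

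The 10 largest decreases included *XTH15*, *ESM1*, *PAR1* and *IAA29*, described with their lists, and 6 other genes. *AT1G75945*, an uncharacterized protein (chr1:28515245-28515916), was listed at 0 in every *gun1W* library and had 23.6, 30.5 and 25.8 scaled TPM in Col-0, with 0, 0.219 and 2.21 in *gun1G*. *AT1G64795*, also uncharacterized (chr1:24082579-24082848), had 0.244, 0 and 0.0698 in *gun1W* and 25.2, 21.6 and 42 in Col-0, and was listed at 0 in every *gun1G* library. These 2 genes were thus low in *gun1G* too, and neither was called different between *gun1W* and *gun1G*. *AT5G02540*, a putative NAD(P)-binding protein (chr5:568425-570973), had 12.4, 2.68 and 4.23 scaled TPM in *gun1W* and 130.4, 115 and 122 in Col-0 (log2 fold change −4.28 ± 0.53 SE, adjusted p = 0.000222). *AT5G57760*, an uncharacterized protein (chr5:23400715-23401267), and *AT5G44260*, a CCCH-type zinc finger protein (chr5:17829618-17831336), were lower, at −4.1 and −3.72 on the log2 scale. *AT2G15880*, which encodes a leucine-rich repeat protein (chr2:6917514-6920319), had 12.2, 1.18 and 0.75 in *gun1W* and 70.3, 50.9 and 69.7 in Col-0. *gun1W* replicate 1 stood nearest to Col-0 for this gene, and its log2 fold change of −4.11 was −5.03 without that library. Over all calls, replicate 1 was the *gun1W* library nearest to the Col-0 mean for 59.0% of the genes called higher and 66.3% of those called lower. It was also the *gun1W* library with the highest share of AT3G06365 and the lowest share of plastid transcripts. The part of these differences in the results was not tested.

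Some growth and elongation regulators were lower in *gun1W*, while genes of cell division and of the cytosolic ribosome were not called. Of 21 growth and elongation regulators, 7 were lower and none was higher, with a median log2 fold change of −0.58, against −0.01 over all nuclear genes. On TPM as deposited this median was 0.34, and 5 of the 21 were lower and 2 higher. *PAR1*, a small bHLH protein that restrains elongation in shade, had 0.691, 0.633 and 2.01 scaled TPM in *gun1W* and 37.1, 31.1 and 24.8 in Col-0 (log2 fold change −3.96 ± 0.32 SE, adjusted p = 1.04e-05). *HB-2*, a homeodomain-leucine zipper factor that shade light induces, had 1.5, 1.38 and 1.85 in *gun1W* and 16.9, 14.7 and 18.1 in Col-0 (log2 fold change −2.77 ± 0.21 SE, adjusted p = 9.04e-06). For both genes the libraries of the 2 groups lay far apart. *PIF4* itself, which drives elongation in warmth and shade, had 8.21, 10.3 and 9.17 in *gun1W* and 31.9, 25.6 and 37.1 in Col-0 (log2 fold change −1.66 ± 0.23 SE, adjusted p = 0.000383). *PIL5*, also known as *PIF1*, was lower, at −1.53, *HFR1*, an inhibitor of PIF proteins, at −1.87, and *PIL1*, a shade-induced bHLH gene, at −1.65 on the log2 scale. *ARGOS*, which enlarges organs through cell number, had 8.46, 5.38 and 3.22 in *gun1W* and 24.4, 25.3 and 23 in Col-0.

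Of the PIF genes, *PIL6*, also known as *PIF5*, did not reach the 2-fold limit, with 17, 21.7 and 17.8 scaled TPM in *gun1W* and 38.3, 32.5 and 42.1 in Col-0 (log2 fold change −0.96 ± 0.19 SE, adjusted p = 0.00401). The members that were lower thus included promoters of elongation (*PIF4*, *HB-2*) and inhibitors of it (*PAR1*, *HFR1*). None of 18 cell division genes and none of 21 genes of the cytosolic ribosome and nucleolus was called in either direction by limma at the 2-fold limit. Leaving out Col-0 replicate 1 or 2 or *gun1W* replicate 1 or 2 gave at most 1 cell division gene in either direction. The medians of the 2 lists were −0.26 and −0.02. *TSO2*, the small subunit of ribonucleotide reductase, came nearest, with 10.5, 12.5 and 16.7 in *gun1W* and 4.64, 8.38 and 5.59 in Col-0 (log2 fold change 1.00 ± 0.24 SE, adjusted p = 0.00999). *RPS13A*, a ribosomal protein, had 159, 182 and 232 in *gun1W* and 124, 149 and 130.1 in Col-0, and the groups did not overlap.

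**Figure D2:**
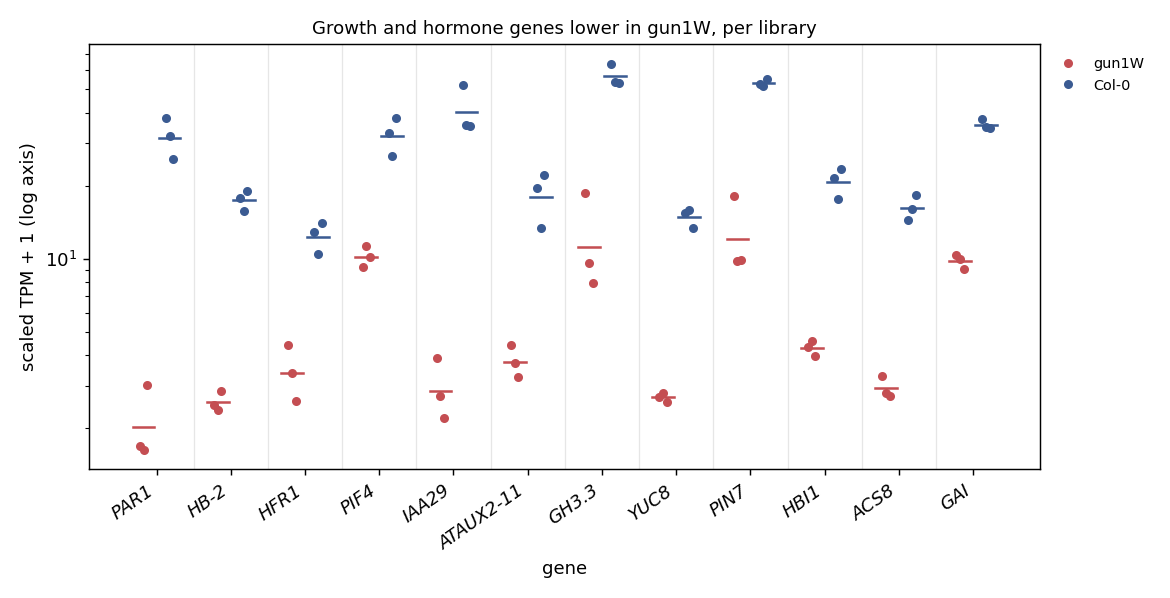
Points are libraries of *gun1W* (red) and Col-0 (blue) on a log axis of scaled TPM + 1, for 12 growth and hormone genes that were called lower, and bars are means on the log scale. The 3 *gun1W* libraries lie below the 3 Col-0 libraries for each gene, from 0.633 to 2.01 against 24.8 to 37.1 scaled TPM for *PAR1*.

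Auxin response was the list with the most genes called lower. Of 28 tested members, 14 were lower and none was higher, and the median log2 fold change was −1.13 (−0.32 on TPM as deposited, with 6 lower). *IAA29*, an Aux/IAA repressor gene that both auxin and PIF proteins induce, had 2.88, 1.72 and 1.21 scaled TPM in *gun1W* and 51.3, 34.7 and 34.5 in Col-0 (log2 fold change −3.82 ± 0.36 SE, adjusted p = 3.65e-05). *ATAUX2-11*, also known as *IAA4*, had 3.41, 2.72 and 2.25 in *gun1W* and 18.6, 12.4 and 21.3 in Col-0 (log2 fold change −2.26 ± 0.25 SE, adjusted p = 9.3e-05). *GH3.3*, which couples auxin to amino acids, had 17.7, 8.57 and 6.96 in *gun1W* and 62.9, 52.7 and 52.4 in Col-0, lower, at −2.34 on the log2 scale. In all 3 genes every *gun1W* library lay well below every Col-0 library. *IAA7*, the list member with the highest level, had 73.7, 50.9 and 54.8 in *gun1W* and 153, 143 and 167 in Col-0 (log2 fold change −1.37 ± 0.19 SE, adjusted p = 0.000506). *SAUR22*, one of the SMALL AUXIN UP RNA genes that promote cell expansion, was lower, at −2.26. Reads of *SAUR* genes may be divided among near-identical copies, so that their single values are uncertain. Without *gun1W* replicate 3, 9 of the 28 genes were called lower.

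Genes that make and move auxin moved in both directions. Of 21 tested, 5 were lower and 2 were higher, and the median of −0.33 was 0.63 on TPM as deposited. *YUC8*, a flavin monooxygenase of the last step of auxin synthesis, had 1.69, 1.81 and 1.56 scaled TPM in *gun1W* and 14.5, 14.8 and 12.4 in Col-0 (log2 fold change −2.47 ± 0.19 SE, adjusted p = 9.07e-06), and *YUC2* was lower, at −1.29. The efflux carriers *PIN7*, *PIN4* and *PIN3* were all lower. *PIN7* had 17.1, 8.83 and 8.9 in *gun1W* and 51.4, 50.4 and 54 in Col-0, *PIN4* had 20.13, 11.3 and 10.7 in *gun1W* and 47.2, 49.8 and 40.4 in Col-0, and *PIN3* had 52.3, 34.6 and 31.8 in *gun1W* and 107, 97.3 and 88.2 in Col-0. Their log2 fold changes were −2.13, −1.69 and −1.31. *UGT74E2*, which couples indole-3-butyric acid to glucose, went the other way, with 3.72, 9.54 and 8.48 in *gun1W* and 0.738, 0.532 and 0.58 in Col-0 (log2 fold change 2.27 ± 0.47 SE, adjusted p = 0.00456). *NIT1*, a nitrilase, was not called, with 147, 179 and 202 in *gun1W* and 139.8, 171 and 155 in Col-0. *PID*, a kinase that places PIN proteins, was higher by 1.05, and its call ended without *gun1W* replicate 1 or without Col-0 replicate 3 (lowest log2 fold change 0.96 over the fits that left out a library).

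Brassinosteroid genes were lower or not called. Of 17 tested, 4 were lower and none was higher, with a median of −0.60 (0.28 on TPM as deposited, with 1 lower). *HBI1*, a bHLH factor that promotes growth downstream of brassinosteroid, had 3.31, 3.56 and 2.98 scaled TPM in *gun1W* and 20.5, 16.7 and 22.5 in Col-0 (log2 fold change −2.28 ± 0.22 SE, adjusted p = 4.06e-05). *CPD*, a cytochrome P450 of brassinosteroid synthesis, had 20.14, 18.3 and 26.8 in *gun1W* and 67.3, 65.7 and 52.6 in Col-0 (log2 fold change −1.47 ± 0.21 SE, adjusted p = 0.000454). In both genes the groups were clearly apart. The other 2, *BR6OX2* and *EXL2*, were lower, at −1.09 and −1.01. The call of *BR6OX2* ended without any 1 of the Col-0 replicates or without *gun1W* replicate 1 or 2 (highest log2 fold change −0.81). That of *EXL2* ended without Col-0 replicate 1 or without *gun1W* replicate 2 or 3 (highest log2 fold change −0.91). Without *gun1W* replicate 2 or without Col-0 replicate 1, 2 of the 17 genes were called.

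Gibberellin genes moved in both directions, with 4 of 21 higher and 4 lower. The higher ones were 3 enzymes that inactivate gibberellin and a receptor. *GA2OX8* had 5.28, 4.55 and 6.61 scaled TPM in *gun1W* and 0.372, 0.464 and 0.902 in Col-0 (log2 fold change 2.04 ± 0.24 SE, adjusted p = 0.000158), *GA2OX2* was higher by 1.96 and *GA2OX6* by 1.97. *GID1B*, a gibberellin receptor, had 27.4, 26.8 and 23.1 in *gun1W* and 8.87, 6.42 and 7.61 in Col-0 (log2 fold change 1.64 ± 0.20 SE, adjusted p = 0.000226). The lower ones were *GA20OX1* (−1.44) and *GA20OX2* (−1.18), which make precursors of active gibberellin, the DELLA repressor *GAI* and *AT5G14920*. *GAI* had 9.33, 9 and 8.1 in *gun1W* and 36.9, 33.9 and 33.8 in Col-0 (log2 fold change −1.87 ± 0.20 SE, adjusted p = 6.74e-05). *AT5G14920*, a gibberellin-regulated protein of the cell wall, had 319.9, 107 and 69.3 in *gun1W* and 632, 512 and 701 in Col-0. The groups did not overlap, and its log2 fold change of −2.18 was −2.81 without *gun1W* replicate 1 and −1.71 without replicate 3, where the call ended.

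Ethylene genes also moved in both directions. Of 24 tested, 5 were higher and 3 lower. Of the ACC synthases, which make the precursor of ethylene, *ACS8* was lower, with 2.3, 1.8 and 1.72 scaled TPM in *gun1W* and 13.5, 15 and 17.4 in Col-0 (log2 fold change −2.47 ± 0.18 SE, adjusted p = 5.17e-06). *ACS7* was higher, with 17.1, 11.8 and 10.5 in *gun1W* and 0.811, 1.68 and 0.891 in Col-0 (log2 fold change 2.72 ± 0.21 SE, adjusted p = 9.04e-06). *ACS6* had 57.5, 16.3 and 12.4 in *gun1W* and 3.14, 2.43 and 2.56 in Col-0, and replicate 1 of *gun1W* stood above the rest. Its log2 fold change of 2.69 was 2.04 without that library. *EFE*, an ACC oxidase, was lower, at −1.08, and *HLS1*, which keeps the apical hook bent, at −1.38. *ERF6*, a stress-responsive ethylene response factor, had 26.3, 17.5 and 17 in *gun1W* and 1.92, 1.22 and 2.38 in Col-0 (log2 fold change 2.9 ± 0.37 SE, adjusted p = 0.000248).

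Of 25 abscisic acid genes, 7 were higher and none lower, with 2 lower without Col-0 replicate 2 and 1 lower without any 1 of the *gun1W* replicates. The 7 included 3 enzymes that break the hormone down and 1 that makes it. *NCED3*, the key enzyme of synthesis, had 20.5, 8.76 and 9.4 scaled TPM in *gun1W* and 5.46, 5.85 and 3.21 in Col-0 (log2 fold change 1.18 ± 0.34 SE, adjusted p = 0.0228). Its call ended without *gun1W* replicate 1 or without Col-0 replicate 3 (lowest log2 fold change 0.82). The 8'-hydroxylase *CYP707A3* had 13.8, 11.7 and 7.18 scaled TPM in *gun1W* and 0.583, 0.687 and 0.706 in Col-0 (log2 fold change 2.8 ± 0.30 SE, adjusted p = 8.11e-05). *CYP707A2* had 5.98, 6.99 and 6.52 in *gun1W* and 0.491, 0.704 and 0.966 in Col-0, and *CYP707A1* had 11.3, 12.2 and 12.7 in *gun1W* and 3.6, 3.16 and 3.01 in Col-0 (log2 fold changes of 2.13 and 1.62). The phosphatase *PP2CA*, a negative regulator of the response, was higher by 1.41, and *LTI78*, also known as *RD29A*, a drought and cold marker, had 28.7, 79.2 and 37 in *gun1W* and 6.21, 5.49 and 9.27 in Col-0 (log2 fold change 2.52 ± 0.49 SE, adjusted p = 0.00342). *PYL4*, the receptor with the highest level among the 25 genes, had 202, 220.1 and 215 in *gun1W* and 188, 245 and 215 in Col-0, and the groups overlapped.

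Cytokinin genes gave few calls, with 3 of 16 higher and 1 lower (2 lower without *gun1W* replicate 1). *ARR4*, a type-A response regulator, had 32.4, 39.4 and 58.1 scaled TPM in *gun1W* and 17.6, 15 and 10.9 in Col-0 (log2 fold change 1.5 ± 0.24 SE, adjusted p = 0.000943), and *CRF6*, a cytokinin response factor, was higher by 1.56. *CKX5*, which degrades cytokinin, had 0.509, 1 and 1.11 in *gun1W* and 3.84, 4.59 and 3.59 in Col-0 (log2 fold change −1.43 ± 0.18 SE, adjusted p = 0.000233). *RR3*, another type-A regulator, overlapped between the groups. Of 9 salicylic acid genes, *CBP60G*, a regulator of salicylic acid synthesis, was the 1 called, with 3.67, 3.34 and 2.99 in *gun1W* and 0.393, 0.7 and 0.423 in Col-0 (log2 fold change 1.53 ± 0.18 SE, adjusted p = 0.00015). Of 8 jasmonate genes, 6 were higher. *OPR3*, an enzyme of jasmonate synthesis, had 25.5, 16.5 and 21.4 in *gun1W* and 4.43, 3.66 and 3.29 in Col-0 (log2 fold change 2.19 ± 0.33 SE, adjusted p = 0.000758).

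In the cell wall, different members of the same families moved in opposite directions. The XTH enzymes cut and rejoin xyloglucan, and 4 of 21 were higher and 4 lower, with a median of 0.01. *XTR6*, also known as *XTH23*, had 18.7, 51.2 and 63.7 scaled TPM in *gun1W* and 7.22, 11.3 and 6.98 in Col-0 (log2 fold change 2.12 ± 0.35 SE, adjusted p = 0.00138). *XTH6* had 10.08, 13.7 and 12.9 in *gun1W* and 41.2, 44.7 and 41.1 in Col-0 (log2 fold change −1.72 ± 0.30 SE, adjusted p = 0.00178). *XTH15* fell the most, with 18.8, 10.13 and 13.2 in *gun1W*, against 598, 438 and 378 in Col-0. *XTH19* and *XTH18*, neighbouring genes of similar sequence, were higher by 1.35 and 1.43, and *XTH4*, the most abundant member, was not called, with 451, 273 and 324 in *gun1W* and 469, 498 and 434 in Col-0. Expansins, which loosen the wall, gave 2 higher and 2 lower of 23, with 1 higher without *gun1W* replicate 1 and 1 lower when any other library of the 2 groups was left out. *EXPA8* had 23.5, 9.27 and 7.42 in *gun1W* and 45.4, 46.1 and 42.3 in Col-0 (log2 fold change −1.83 ± 0.40 SE, adjusted p = 0.00661), and *EXPA10* had 8.52, 8.97 and 8.13 in *gun1W* and 3.01, 2.71 and 2.25 in Col-0 (log2 fold change 1.39 ± 0.27 SE, adjusted p = 0.00307).

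Genes of wall polymers gave few calls, and those called were higher. *CESA5*, a cellulose synthase of the primary wall, had 14.7, 22.9 and 26.6 scaled TPM in *gun1W* and 5.22, 7.64 and 6.24 in Col-0 (log2 fold change 1.58 ± 0.26 SE, adjusted p = 0.00119), and was the 1 gene called of 9. None of 11 secondary wall genes was called, and their median was −0.33. Of 11 pectin enzymes, *GAE1* and *GAE6*, which make the galacturonic acid of pectin, were higher. *GAE1* had 145, 167 and 172 in *gun1W* and 62.8, 68.7 and 63.5 in Col-0 (log2 fold change 1.3 ± 0.14 SE, adjusted p = 6.96e-05). *GAE6* was higher by 1.14, and without *gun1W* replicate 3 its value of 1.00 fell just under the 2-fold limit. The proline-rich proteins *PRP4* and *PRP3* were among the most abundant wall genes, at 1246, 917 and 621 in *gun1W* and 1159, 1272 and 1357 in Col-0 for *PRP4*, and neither was called. Of the 19 genes of arabinogalactan and proline-rich proteins, 1 was higher and none lower, and without *gun1W* replicate 1, 2 were higher and 3 lower.

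The surface of the shoot is built by cutin and wax genes, and 6 of 15 of these and of the lipid transfer proteins were higher and none lower. *CER3*, which makes wax alkanes, had 19.1, 44 and 46.7 scaled TPM in *gun1W* and 8.53, 9.39 and 7.23 in Col-0 (log2 fold change 1.91 ± 0.35 SE, adjusted p = 0.00227). *KCS1*, a fatty acid elongase of wax synthesis, had 63.7, 132 and 131 in *gun1W* and 32.1, 38.1 and 26.8 in Col-0 (log2 fold change 1.66 ± 0.30 SE, adjusted p = 0.00197). In both genes replicates 2 and 3 of *gun1W* stood above replicate 1, which stood above all Col-0 libraries. *LTP2*, a lipid transfer protein, had 258, 233 and 262 in *gun1W* and 119.9, 75.5 and 80 in Col-0 (log2 fold change 1.47 ± 0.25 SE, adjusted p = 0.00146), whereas its neighbour *LP1* was not called, with 357, 353 and 468 in *gun1W* and 529, 589 and 538 in Col-0.

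Sugar transporters gave 6 higher and 2 lower of 27. *STP14*, a galactose transporter, had 1.8, 1.31 and 1.55 scaled TPM in *gun1W* and 12.7, 7.58 and 8.68 in Col-0 (log2 fold change −2.04 ± 0.33 SE, adjusted p = 0.00114). *GPT2*, which carries glucose 6-phosphate into plastids and is induced by sugar, had 6.45, 6.91 and 6.28 in *gun1W* and 0.788, 2.07 and 0.587 in Col-0 (log2 fold change 1.87 ± 0.39 SE, adjusted p = 0.00503). *ESL1*, a vacuolar sugar transporter, was higher by 1.59, and *MSS1*, also known as *STP13*, by 1.59. *APE2*, the triose phosphate translocator of the chloroplast, is used in photosynthesis and was not called, with 204, 246 and 328 in *gun1W* and 229.9, 254 and 204 in Col-0. Without *gun1W* replicate 3, 3 of the 27 genes were called higher, and 1 was lower whichever *gun1W* or Col-0 library was left out.

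Of 24 nitrogen genes, 6 were higher and 2 lower. The ammonium transporters *AMT1;1* and *AMT1;2* had 32.4, 59.4 and 57.8 and 20.14, 30.3 and 29.8 scaled TPM in *gun1W*, against 17, 18.4 and 15.1 and 6.85, 6.1 and 6.6 in Col-0. Their log2 fold changes were 1.47 and 1.86, and *AMT2* was higher by 1.57. Nitrite reductase, *NIR1*, had 87.2, 186 and 207 in *gun1W* and 39.4, 52.9 and 52.2 in Col-0 (log2 fold change 1.63 ± 0.35 SE, adjusted p = 0.00612), and *UPM1*, which makes the siroheme that nitrite and sulfite reductase need, had 65.8, 133 and 171 in *gun1W* and 31.6, 30.2 and 29.5 in Col-0 (log2 fold change 1.88 ± 0.36 SE, adjusted p = 0.00286). *NIA2*, the main nitrate reductase, was above Col-0 in all 3 libraries without reaching the 2-fold limit (324, 409 and 458 in *gun1W* and 251, 262 and 244 in Col-0). *NRT1.7*, which loads nitrate into phloem, was higher by 2.47, and *NRT1.5*, which loads it into xylem, was lower. *NRT1.5* had 11, 3.27 and 1.78 in *gun1W* and 31.5, 26.7 and 43.2 in Col-0 (log2 fold change −2.71 ± 0.53 SE, adjusted p = 0.00361), and −3.31 without *gun1W* replicate 1. *GDH1*, glutamate dehydrogenase, had 9.08, 4.52 and 3.64 in *gun1W* and 26.4, 20.2 and 30.1 in Col-0 (log2 fold change −2.04 ± 0.29 SE, adjusted p = 0.000493).

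Iron and phosphate genes followed. Of 16 iron genes, 4 were higher and 2 lower, and without *gun1W* replicate 1, 7 were called higher. The plastid iron store ferritin was higher for *FER3*, with 37.5, 51.5 and 67.3 scaled TPM in *gun1W* and 8.12, 12.3 and 9.42 in Col-0 (log2 fold change 2.26 ± 0.28 SE, adjusted p = 0.000204), and for *FER4* (log2 fold change 1.2), but *FER1*, the most abundant ferritin gene, was not called (89.6, 148 and 196 in *gun1W* and 96.2, 114 and 102 in Col-0). *NAS3*, which makes the iron chelator nicotianamine, had 3.84, 7.28 and 6.39 in *gun1W* and 0.24, 0 and 0.682 in Col-0 (log2 fold change 2.38 ± 0.28 SE, adjusted p = 0.000134). *AT3G25190*, a vacuolar iron transporter-like gene, was lower, with 1.36, 2.1 and 1.28 in *gun1W* and 8.38, 9.87 and 15.3 in Col-0 (log2 fold change −2.21 ± 0.29 SE, adjusted p = 0.000297), as was *FRO3*, a mitochondrial ferric reductase (−1.16). Of 10 phosphate starvation genes, 3 were higher (5 without *gun1W* replicate 1), namely the acid phosphatase *PAP17* (1.99), the phosphatase *PS2* (1.59) and *SPX1*, a sensor protein. *SPX1* had 8.07, 9.69 and 10.9 in *gun1W* and 1.39, 2.63 and 1.83 in Col-0 (log2 fold change 1.85 ± 0.26 SE, adjusted p = 0.000512). The phosphate transporter *PHT1;1* was not called, and its replicate 1 in *gun1W* lay within the Col-0 range (16.6, 50.5 and 50.7 in *gun1W* and 16.8, 13.6 and 12.9 in Col-0).

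Sulfate genes and aquaporins gave few calls. Of 21 sulfate genes, 2 were higher, *APR2*, which reduces activated sulfate, with 18.7, 43.6 and 46.9 scaled TPM in *gun1W* and 8.04, 10.2 and 10.09 in Col-0 (log2 fold change 1.74 ± 0.43 SE, adjusted p = 0.0113), and the APS kinase *AKN2* (1.3). Without *gun1W* replicate 1, 7 of the 21 were higher and 1 lower. Of 23 aquaporins, 2 were higher and 1 lower, and these 3 calls (*PIP2;5*, *RD28* and *PIP1;5*) all ended when *gun1W* replicate 2 or 3 was left out, with log2 fold changes down to 1.19 and 1.23 and up to −0.79. *TIP2*, the most abundant, had 1557, 1400.4 and 1582 in *gun1W* and 2114, 2124 and 1657 in Col-0. The plasma membrane proton pump *HA2* was not called, with 142, 131 and 136 in *gun1W* and 155, 164 and 152 in Col-0 (log2 fold change −0.21 ± 0.12 SE, adjusted p = 0.219). Its small difference was without overlap of the groups.

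**Figure D3:**
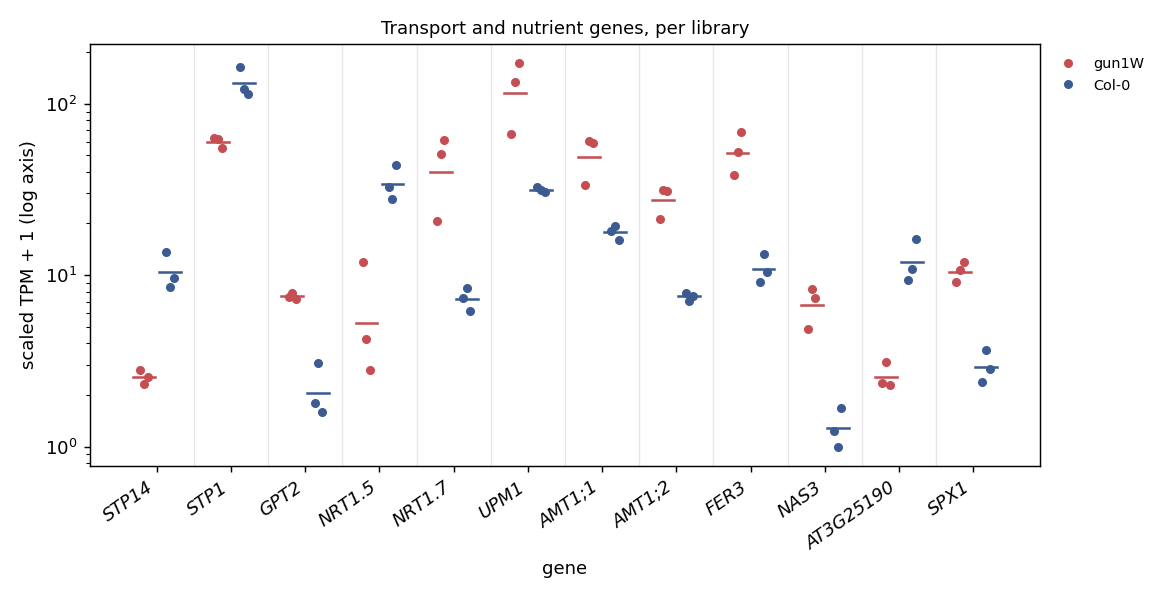
Points are libraries of *gun1W* (red) and Col-0 (blue) on a log axis of scaled TPM + 1, for 12 genes of sugar, nitrogen, iron and phosphate transport, and bars are means on the log scale. *NRT1.5*, *STP14*, *STP1* and *AT3G25190* lie lower in *gun1W* and the other genes higher, and *gun1W* replicate 1 of *NRT1.5* (11.0) stands apart from replicates 2 and 3 (3.27 and 1.78). The call of *STP1* (log2 fold change −1.13) ended whichever *gun1W* or Col-0 library was left out.

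Most of the tested glycosyltransferases and detoxification P450s were higher, and a smaller share of the glutathione transferases (8 of 25). Of 11 glycosyltransferases and detoxification P450s, 8 were higher and none was lower, with a median of 1.54. *DOGT1*, also known as *UGT73C5*, which couples fungal toxins and brassinosteroid to glucose, had 18, 52.2 and 54.2 scaled TPM in *gun1W* and 1.01, 1.17 and 1.66 in Col-0 (log2 fold change 4.08 ± 0.41 SE, adjusted p = 5.66e-05). Its neighbour *UGT73C6* had 3.32, 9.45 and 11.4 in *gun1W* and 0.057, 0.029 and 0.188 in Col-0 (log2 fold change 2.92 ± 0.47 SE, adjusted p = 0.00111). Both stood lower in *gun1W* replicate 1 than in replicates 2 and 3, and far above Col-0 in all 3. *CYP81D11*, a P450 induced by toxic chemicals and jasmonate, had 21.9, 50.9 and 37.3 in *gun1W* and 10.6, 9.23 and 9.23 in Col-0 (log2 fold change 1.75 ± 0.31 SE, adjusted p = 0.00178). *CYP81D8* had 1.29, 6.29 and 10.4 in *gun1W* and 0.564, 0.363 and 0.306 in Col-0, and its log2 fold change of 2.03 was 2.7 without *gun1W* replicate 1. *UGT73B3*, *UGT73B5* and *UGT73B2* were higher by 1.43, 1.53 and 1.54. The *UGT73* genes are tandem copies of similar sequence, so that their reads may be exchanged, and *UGT73B4* was listed at 0 in all *gun1W* libraries and in 1 Col-0 library. *OPR1*, an oxophytodienoate reductase outside jasmonate synthesis, had 33.7, 140.3 and 146 in *gun1W* and 17.9, 19.2 and 24.6 in Col-0, and its call ended without *gun1W* replicate 2 or 3 (log2 fold changes of 1.74 and 1.71, against 2.07 with all libraries). *UGT73B2* was also called with all libraries and not without either of these or without Col-0 replicate 1 or 2 (lowest log2 fold change 1.21).

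Of 25 glutathione transferases, 8 were higher and 1 lower (none lower without Col-0 replicate 3). *ERD9*, also known as *GSTU17*, had 6.88, 42.8 and 48.9 scaled TPM in *gun1W* and 0.658, 0.772 and 2 in Col-0 (log2 fold change 3.64 ± 0.62 SE, adjusted p = 0.00153), and 4.50 without *gun1W* replicate 1. *GSTF8* had 249, 508 and 629.7 in *gun1W* and 74.8, 96.9 and 58.4 in Col-0 (log2 fold change 2.5 ± 0.36 SE, adjusted p = 0.000577), and *GSTU5* was higher by 2.08. Of 15 proton pumps, ABC and MATE transporters, 5 were higher and none lower. *DTX1*, a MATE exporter of toxic compounds, had 9.96, 9.87 and 14.1 in *gun1W* and 0.433, 0.221 and 0.38 in Col-0 (log2 fold change 3.18 ± 0.22 SE, adjusted p = 4.37e-06), and *AT2G04050*, its neighbour, had 6.8, 11.9 and 19.7 in *gun1W* and 0.385, 0.219 and 0 in Col-0 (log2 fold change 3.42 ± 0.33 SE, adjusted p = 4.42e-05). *ABCC3*, a vacuolar pump of glutathione conjugates and chlorophyll catabolites, had 9.6, 18.6 and 26.2 in *gun1W* and 3.58, 3.95 and 3.37 in Col-0 (log2 fold change 1.94 ± 0.31 SE, adjusted p = 0.00103). In *gun1W* replicate 1 was the lowest of the 3 libraries for *ERD9*, *GSTF8*, *ABCC3* and *AT2G04050*.

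Promoters of these genes were read for TGACG, the core of the as-1 element that TGA transcription factors bind in genes of chemical stress. The window was the 250 bases before the annotated start of the gene in RefSeq (assembly TAIR10.1), read on both strands. TGACG was in 54.5% of the promoters of the 11 glycosyltransferases and detoxification P450s and 40% of those of the 25 glutathione transferases. It was in 19.4% of the 17502 nuclear promoters, 21.7% of those of genes called higher and 20.7% of those of genes called lower. Of the 8 list members called higher, 4 held it, namely *DOGT1*, *CYP81D11*, *UGT73B3* and *UGT73B5*. Their windows are shown, except that of *DOGT1*, which overlaps the next gene, *AT2G36810*. The windows of the MATE pair are shown too, since these are detoxification genes that rose and held the match. The pair comes from the list of proton pumps, ABC and MATE transporters, whose share with TGACG was not counted. Windows without a match are not shown. Capitals mark TGACG or its reverse complement CGTCA, and each sequence reads toward the gene.
*CYP81D11* (chr3:10790554-10790803, minus strand): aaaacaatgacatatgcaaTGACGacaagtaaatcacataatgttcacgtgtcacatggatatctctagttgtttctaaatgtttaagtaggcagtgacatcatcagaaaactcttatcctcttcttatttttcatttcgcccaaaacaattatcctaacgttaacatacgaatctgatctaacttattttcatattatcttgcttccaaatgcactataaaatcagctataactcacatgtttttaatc
*UGT73B3* (chr4:16344819-16345068, minus strand): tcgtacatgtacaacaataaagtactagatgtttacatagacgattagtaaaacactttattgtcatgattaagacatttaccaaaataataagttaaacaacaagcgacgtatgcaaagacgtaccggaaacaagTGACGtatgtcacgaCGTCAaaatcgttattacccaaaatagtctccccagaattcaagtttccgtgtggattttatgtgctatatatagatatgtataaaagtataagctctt
*UGT73B5* (chr2:6758180-6758429, plus strand): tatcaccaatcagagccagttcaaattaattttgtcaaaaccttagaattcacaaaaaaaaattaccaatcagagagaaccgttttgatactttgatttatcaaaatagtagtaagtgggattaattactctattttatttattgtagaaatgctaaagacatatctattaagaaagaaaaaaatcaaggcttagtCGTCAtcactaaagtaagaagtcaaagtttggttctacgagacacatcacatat
*DTX1* (chr2:1336551-1336800, minus strand): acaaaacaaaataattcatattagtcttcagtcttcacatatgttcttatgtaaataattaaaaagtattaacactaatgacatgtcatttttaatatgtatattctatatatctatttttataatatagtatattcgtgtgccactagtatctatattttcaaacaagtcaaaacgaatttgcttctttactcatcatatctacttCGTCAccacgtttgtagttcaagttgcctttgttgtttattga
*AT2G04050* (chr2:1339469-1339718, minus strand): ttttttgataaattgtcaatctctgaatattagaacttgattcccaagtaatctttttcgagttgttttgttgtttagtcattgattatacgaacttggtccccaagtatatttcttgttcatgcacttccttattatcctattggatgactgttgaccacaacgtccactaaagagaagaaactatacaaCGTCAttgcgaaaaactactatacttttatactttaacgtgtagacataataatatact

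The match nearest to the gene ended 226 bases before the start in *CYP81D11*, 94 in *UGT73B3*, which held 2, 49 in *UGT73B5*, 38 in *DTX1*, 54 in *AT2G04050* and 177 in *DOGT1*. The promoters of *UGT73C6*, *CYP81D8*, *UGT73B2* and *OPR1* held no TGACG in this window. These lists also stood above all promoters for 3 other motifs. TTGAC was in 72.7% of the promoters of the glycosyltransferase and P450 list and 60% of those of the glutathione transferases, CACGTG in 27.3% and 12%, and ACGTG in 36.4% and 44%. Over the called genes, TTGAC, the core of the W-box of WRKY factors, was in 53.9% of the promoters of genes called higher, 42.1% of those of genes called lower and 44.9% of all. The G-box CACGTG, which PIF and other bHLH and bZIP factors bind, was in 10.5% of promoters of genes called higher, 8.98% of those called lower and 7.54% of all. ACGTG, which the G-box contains and which is the core of the abscisic acid element, was in 31.7%, 26.7% and 24.1%. TGGGCC, the site II element of genes of growing cells, was in 10.7% of the promoters of genes called higher, 11.2% of those called lower and 16.8% of all. A match is a description of the sequence and no measured binding site.

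Glucosinolates, the mustard oil precursors of the cabbage family, are broken down by myrosinases when tissue is damaged. Of 11 breakdown genes, 3 were lower in *gun1W* and none higher, and the median log2 fold change of the list was 0.13. *TGG1*, the main myrosinase of guard cells and idioblasts, had 91.5, 82.1 and 75.6 scaled TPM in *gun1W* and 270.0, 258 and 327 in Col-0 (log2 fold change −1.76 ± 0.14 SE, adjusted p = 1.04e-05). *TGG2*, the second leaf myrosinase, had 4.99, 3.79 and 3.79 in *gun1W* and 10.3, 11 and 16.2 in Col-0 (log2 fold change −1.36 ± 0.17 SE, adjusted p = 0.000263). The other was *ESM1*, an epithiospecifier modifier that steers breakdown toward isothiocyanates, with 1.68, 1.74 and 2.27 in *gun1W* and 66.2, 63.5 and 71.1 in Col-0. *PYK10*, a root beta-glucosidase of endoplasmic reticulum bodies and the most abundant gene of the list, was not called, with 1008, 1009 and 1005 in *gun1W* and 900.0, 819 and 890.0 in Col-0 (log2 fold change 0.21 ± 0.13 SE, adjusted p = 0.226). Its *gun1W* libraries lay slightly above those of Col-0. Of 19 genes of indole glucosinolates and camalexin, 2 were higher, *IGMT2*, a methyltransferase with a close copy (1.58), and *SOT16*, which sat at the 2-fold limit (1.00). The call of *SOT16* ended without *gun1W* replicate 1 or 2 or without Col-0 replicate 3.

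Aliphatic glucosinolate genes were not called against Col-0 apart from *AT2G31790*, also known as *UGT74C1*, with 15.8, 10.5 and 10.9 scaled TPM in *gun1W* and 2.99, 5.74 and 4.84 in Col-0 (log2 fold change 1.29 ± 0.21 SE, adjusted p = 0.00123). Against the same Col-0 libraries, their 16 log2 fold changes had a median of −0.04 for *gun1W*, 0.47 for *gun1M* and 1.45 for *gun1G*. Set against *gun1G* directly, 10 of the 16 were lower in *gun1W*, where 1.99% of all nuclear genes were lower and 2.73% higher. *MAM1*, which elongates the methionine chain, had 2.62, 3.73 and 4.21 in *gun1W* and 21.3, 24.8 and 29 in *gun1G*, with 6.25, 6.59 and 7.27 in Col-0 (*gun1W* minus *gun1G* −2.53 ± 0.19 SE, adjusted p = 1.94e-05). *CYP83A1*, a core P450 of the pathway, had 1.21, 1.52 and 2.35 in *gun1W* and 13.2, 15 and 20.7 in *gun1G*, with 2.37, 3.65 and 2.5 in Col-0 (*gun1W* minus *gun1G* −2.68 ± 0.24 SE, adjusted p = 5.84e-05). *MYB28*, the main regulator of the pathway, had 2.17, 3.43 and 4.74 in *gun1W* and 12.7, 6.66 and 15.3 in *gun1G*, with 4.64, 6.3 and 5.2 in Col-0 (*gun1W* minus *gun1G* −1.47 ± 0.28 SE, adjusted p = 0.00659). In these 3 genes no *gun1W* library reached the lowest *gun1G* library.

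**Figure D4:**
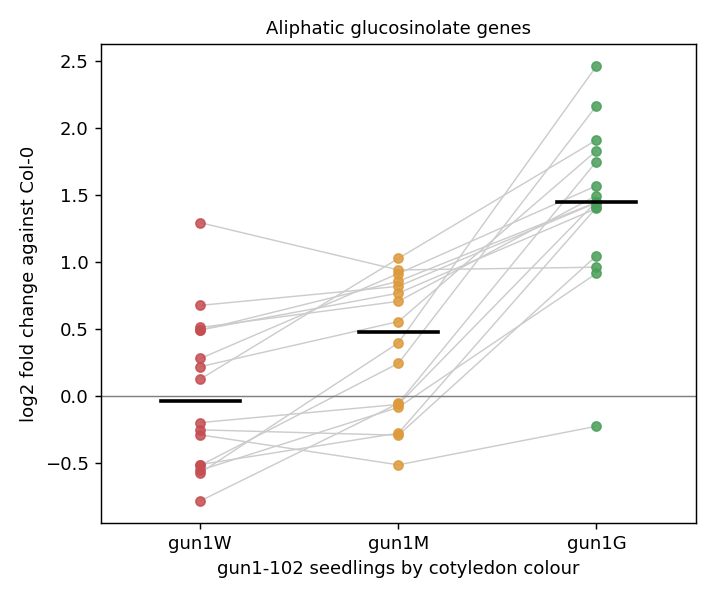
Points are the 16 tested aliphatic glucosinolate genes by log2 fold change against Col-0 in *gun1W*, *gun1M* and *gun1G* (horizontal axis), grey lines join the same gene and black bars are medians of −0.04, 0.47 and 1.45. The 3 comparisons share the Col-0 libraries, and most genes lie highest in *gun1G*.

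Of 10 flavonoid genes, 7 were higher and none lower, with a median of 1.31. *TT4*, chalcone synthase, had 21.4, 49.5 and 57.7 scaled TPM in *gun1W* and 3.57, 7.18 and 6.55 in Col-0 (log2 fold change 2.63 ± 0.42 SE, adjusted p = 0.00105). *UGT78D2*, which couples flavonoids and anthocyanins to glucose, had 17.3, 21.5 and 20.5 in *gun1W* and 2.12, 3.67 and 2.74 in Col-0 (log2 fold change 2.45 ± 0.20 SE, adjusted p = 1.52e-05). *DFR*, at the entry to anthocyanins, was low in absolute terms, with 1.54, 2.93 and 1.99 in *gun1W* and 0.18, 0.184 and 0.0341 in Col-0. Of 21 phenylpropanoid and lignin genes, 3 were higher, with 7 without *gun1W* replicate 1 and 1 without *gun1W* replicate 2. *4CL3*, a ligase of the flavonoid branch, was higher by 1.58. *SNG1*, which makes the sunscreen sinapoylmalate, was below Col-0 in all 3 libraries without reaching the 2-fold limit, with 72.8, 77.2 and 78.6 in *gun1W* and 109.9, 114 and 123 in Col-0 (log2 fold change −0.59 ± 0.13 SE, adjusted p = 0.00754).

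Terpenoid genes gave 1 call. None of 10 sterol and terpene genes was called, and *HMG1*, the rate-limiting reductase of the cytosolic pathway, had 161, 116 and 122 scaled TPM in *gun1W* and 264, 233 and 213 in Col-0 (log2 fold change −0.83 ± 0.18 SE, adjusted p = 0.0051). In the plastid MEP pathway, which feeds carotenoids and chlorophyll, *CLA1*, the first enzyme, had 77.8, 65 and 70.2 in *gun1W* and 107, 121 and 119 in Col-0 (log2 fold change −0.70 ± 0.17 SE, adjusted p = 0.01). *HDR*, the last enzyme, was the 1 call of 7 (−1.05), which ended without *gun1W* replicate 3 or without Col-0 replicate 3 (highest log2 fold change −0.82).

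The libraries of *gun1W* were also compared with those of *gun1G*, from green seedlings of the same mutant. Of the nuclear genes, 483 were higher and 352 lower in *gun1W* than in *gun1G*, together 4.72%. The detoxification list had 6 of 11 higher in *gun1W*, and 3 of these calls (*CYP81D8*, *UGT73B2* and *UGT73B5*) ended without *gun1W* replicate 2 or 3 or without any 1 of the *gun1G* replicates. *DOGT1* had 18, 52.2 and 54.2 scaled TPM in *gun1W*, 9.69, 16.9 and 28.1 in *gun1M*, 1.82, 2.96 and 2.99 in *gun1G* and 1.01, 1.17 and 1.66 in Col-0 (*gun1W* minus *gun1G* 3.43 ± 0.41 SE, adjusted p = 0.000384). *DTX1* had 9.96, 9.87 and 14.1 in *gun1W*, 6.22, 8.58 and 5.42 in *gun1M*, 0.342, 0.988 and 0.242 in *gun1G* and 0.433, 0.221 and 0.38 in Col-0 (*gun1W* minus *gun1G* 3.03 ± 0.22 SE, adjusted p = 1.94e-05). For both genes the *gun1G* libraries were near those of Col-0. The *gun1M* libraries of *DTX1* lay between *gun1G* and *gun1W*, while for *DOGT1* *gun1M* replicate 3 (28.1) lay above *gun1W* replicate 1 (18). *TGG1* had 91.5, 82.1 and 75.6 in *gun1W*, 184, 165 and 178 in *gun1M*, 312, 264 and 263 in *gun1G* and 270.0, 258 and 327 in Col-0 (*gun1W* minus *gun1G* −1.74 ± 0.14 SE, adjusted p = 2.79e-05). *ESM1* had 1.68, 1.74 and 2.27 in *gun1W*, 7.98, 8.21 and 7.29 in *gun1M*, 46.1, 59.6 and 66 in *gun1G* and 66.2, 63.5 and 71.1 in Col-0 (*gun1W* minus *gun1G* −4.32 ± 0.15 SE, adjusted p = 4.97e-08).

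**Figure D5:**
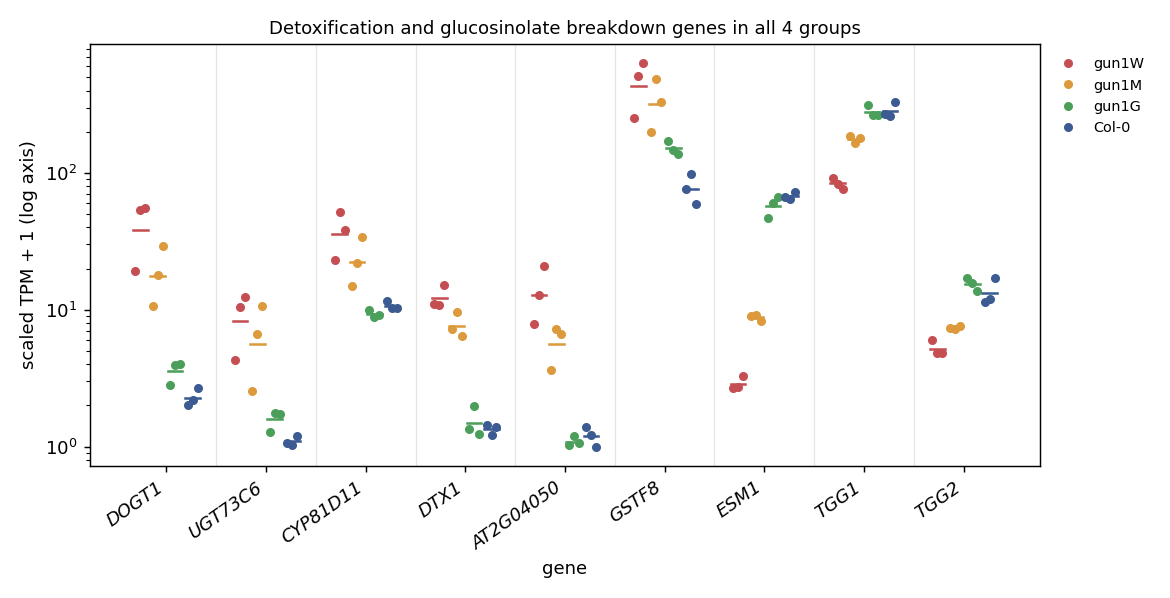
Points are libraries of *gun1W* (red), *gun1M* (orange), *gun1G* (green) and Col-0 (blue) on a log axis of scaled TPM + 1, for 6 detoxification and export genes and 3 glucosinolate breakdown genes, and bars are means on the log scale. *gun1W* lies above *gun1G* for the first 6 genes and below it for *ESM1*, *TGG1* and *TGG2*.

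Growth and hormone genes also differed between *gun1W* and *gun1G*. *PIF4* had 8.21, 10.3 and 9.17 scaled TPM in *gun1W* and 19.9, 29.1 and 40 in *gun1G*, with 31.9, 25.6 and 37.1 in Col-0 (*gun1W* minus *gun1G* −1.54 ± 0.23 SE, adjusted p = 0.00135). *IAA29* had 2.88, 1.72 and 1.21 in *gun1W* and 6.71, 18.3 and 18.8 in *gun1G*, with 51.3, 34.7 and 34.5 in Col-0 (*gun1W* minus *gun1G* −2.33 ± 0.36 SE, adjusted p = 0.00192), so that *gun1G* stood between. *ACS7* had 17.1, 11.8 and 10.5 in *gun1W* and 1.19, 1.76 and 1.83 in *gun1G*, with 0.811, 1.68 and 0.891 in Col-0 (*gun1W* minus *gun1G* 2.42 ± 0.21 SE, adjusted p = 4.45e-05). *ARGOS* showed no such difference, with 8.46, 5.38 and 3.22 in *gun1W* and 2.83, 7.32 and 5.49 in *gun1G* (*gun1W* minus *gun1G* 0.10 ± 0.41 SE, adjusted p = 0.903). Of the jasmonate genes that were higher than in Col-0, none was higher than in *gun1G*, and *AOS*, the first enzyme particular to jasmonate synthesis, had 46.3, 44 and 50.3 in *gun1W* and 72.2, 53.9 and 47.4 in *gun1G*, with 12.5, 17.4 and 13.3 in Col-0. *LOX2*, of the same list and not called against Col-0, was lower than in *gun1G* (*gun1W* minus *gun1G* −3.35, adjusted p = 0.000283 in limma). The list median against Col-0 was 1.65 in *gun1W*, 2.30 in *gun1M* and 1.91 in *gun1G*. None of the 15 cutin, wax and lipid transfer genes differed from *gun1G* at the 2-fold limit. *CER3* had 19.1, 44 and 46.7 in *gun1W* and 22.4, 18.1 and 25.1 in *gun1G* (*gun1W* minus *gun1G* 0.63 ± 0.35 SE, adjusted p = 0.264).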

How the data were processed

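RNA of 12 libraries was analysed, and the column names gave each library its group. The authors deposited TPM per transcript, made with Salmon on the AtRTD3 transcriptome, without read counts. In the submitters' processing notes, the tools are Trimmomatic, FastQC, STAR and Salmon, and the build is TAIR10, with no versions. The sheet of plastid transcripts repeats values of the full sheet and was not used.

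TPM was summed per gene, and a gene model outside the plastid entered when it reached a TPM of 1 in 3 or more libraries, which 18373 did. Of these, 17675 carry the name of a single nuclear locus. The scaling factor of a library came from 12490 nuclear genes, as the median of their log2 ratios to the gene's average. limma 3.58.1 in R 4.3.3 (eBayes with a trend) was run on log2(scaled TPM + 1), with the 4 groups as the only term and Benjamini-Hochberg adjustment over all 18373 models. Calls needed an adjusted p under 0.05 and at least 2-fold, and all p-values come from this fit. On simulated *gun1W* and Col-0 data of 18371 models, 33 or 34 genes were changed per size. An adjusted p under 0.05 in the right direction was reached by 91.2 and 90.9% at −2 and 2 on the log2 scale. It was reached by 82.4 and 97.0% at −1.5 and 1.5, and by 54.5 and 63.6% at −1 and 1. The 2-fold limit was not applied, so that these are not shares of calls. Fewer genes were changed than were called in the data, and low genes were not among them.

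The members, the 43 lists and the tests were chosen with earlier results of these data known. Of 735 listed genes, 729 matched their RefSeq symbol, 5 had none and were kept, and 1 was left out. Named genes are the 10 largest increases and decreases without overlap and beyond light harvesting, heat shock and starvation, with a mean of at least 5 scaled TPM in the higher group, then up to 3 called members of each list with the smallest adjusted p, its most abundant member, and all members of lists of 5 or fewer. Not every gene that this rule picked is described above, and other list members are named after their values were seen. Promoters were 250 bases before the RefSeq gene start (TAIR10.1), for 17502 genes. Alternatives were other added values, filters and scalings, both groups alone, eBayes without a trend, a replicate block, a covariate and leaving out libraries. Python 3.11.15, numpy 2.4.6, pandas 2.3.3 and matplotlib 3.10.9 were used.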

Additional observations from a re-analysis of the deposited data

Results flagged for a closer look

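The named genes below differed between *gun1W* and *gun1G*, both of which carry *gun1-102*, when the difference itself was tested with limma (*gun1W* minus *gun1G*, adjusted p under 0.05 and at least 2-fold, 4.72% of all nuclear genes). All values are differences in log2(scaled TPM + 1). Each group held 3 libraries, too few to ask whether 1 of them stands outside its group.

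These detoxification and export genes were higher in *gun1W* than in *gun1G*. The difference was 3.43 for *DOGT1*, 2.38 for *UGT73C6*, 1.94 for *CYP81D11*, 1.8 for *CYP81D8*, 1.46 for *UGT73B2* and 1.01 for *UGT73B5*. It was 3.55 for *AT2G04050*, 3.03 for *DTX1*, 1.12 for *ABCC3*, 1.51 for *GSTF8* and 1.33 for *GSTU7*. The calls of *CYP81D8*, *UGT73B2*, *UGT73B5*, *ABCC3*, *GSTF8* and *GSTU7* ended without *gun1W* replicate 2 or 3 or without *gun1G* replicate 2 or 3. In the same lists, genes not called against Col-0 were lower in *gun1W* than in *gun1G*, at −1.76 for *GSTU20*, −1.7 for *GSTF11* and −1.04 for the proton pump *HA3*. The call of *HA3* ended without *gun1G* replicate 1. Of the 25 glutathione transferases, 2 were higher and 2 lower than in *gun1G*, and *ERD9* was not called in limma (0.38, adjusted p = 0.739). The median of this list against Col-0 was 0.47 in both *gun1W* and *gun1G*. Of the 10 flavonoid genes, 2 were higher than in *gun1G*, *UGT78D2* by 1.44 and *DFR* by 1.38. *TT4* (0.52), *F3H* (0.69), *FLS1* (0.11) and *TT5* (0.07) were not called. The flavonoid median against Col-0 was 1.31 in *gun1W* and 1.17 in *gun1G*.

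Of the 10 largest increases against Col-0, 8 were also above *gun1G*, among them *DOGT1* with the value given. Both comparisons use the same *gun1W* libraries, and the largest increases and decreases were picked by their values in them. This count is thus no separate support for the increases. *STZ* (0.26, adjusted p = 0.509) and *AT1G65490* (1.17, adjusted p = 0.0903) were not called in limma. The difference was 3.51 for *GolS1*, 3.29 for *BCB*, 3.14 for *AT5G42760*, 2.81 for *SNOR95*, 2.23 for *AT1G22810*, 1.96 for *RHL41* and 1.38 for *AT1G15010*. Of the large decreases, it was −3.24 for *AT5G02540*, −2.68 for *XTH15*, −2.46 for *AT5G57760* and −1.77 for *AT5G44260*. The calls of *SNOR95*, *AT1G22810* and *AT5G44260* ended without *gun1W* replicate 2 or 3 or without *gun1G* replicate 2 or 3. That of *AT1G15010* ended without *gun1W* replicate 2 or without *gun1G* replicate 3.

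These growth and auxin genes were lower in *gun1W* than in *gun1G*. The difference was −2.33 for *IAA29*, −1.63 for *ATAUX2-11*, −1.41 for *GH3.3* and −1.07 for *SAUR15*. It was −1.88 for *HB-2*, −1.88 for *PAR1*, −1.54 for *PIF4* and −1.26 for *PIL1*, and −1.55 for *YUC8*, −1.43 for *PIN4*, −1.12 for *YUC2* and −1.12 for *PIN7*. *UGT74E2* was higher by 1.7. The calls of *UGT74E2*, *PIN7*, *GH3.3* and *SAUR15* ended without *gun1W* replicate 2 or without *gun1G* replicate 2, and that of *YUC2* without *gun1G* replicate 3.

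For other hormones the difference was −1.51 for *HBI1*, −1.34 for *BR6OX2*, −1.51 for *GA20OX1*, −1.95 for *ACS8* and −1.46 for *CKX5*. On the higher side it was 2.42 for *ACS7*, 1.77 for *CYP707A2*, 1.63 for *GA2OX8* and 1.14 for *CRF6*. In the wall it was 2.11 for *XTR6* and −1.27 for *XTH6*. For cell type markers it was −1.56 for *KAT1*, −1.38 for *CAB3*, −1.14 for *RBCS1A* and −1.05 for *PP2-A1*. The calls of *BR6OX2*, *CRF6*, *XTH6* and *PP2-A1* ended without *gun1G* replicate 2.

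Among transport genes the difference was 2.05 for *UPM1*, 1.59 for *AMT1;1*, 1.31 for *AMT2*, 1.18 for *NIA2*, 1.2 for *SWEET2* and 1.31 for *NAS3*. It was −2.21 for *NRT1.5*, −1.87 for *AT3G25190* and −1.02 for *GDH1*. The calls of *NRT1.5*, *GDH1* and *AMT2* ended without *gun1W* replicate 2 or 3, and that of *NIA2* without *gun1G* replicate 3.

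These glucosinolate genes were lower in *gun1W* than in *gun1G*. Of the breakdown genes it was −4.32 for *ESM1*, −1.74 for *TGG1* and −1.57 for *TGG2*. Of the aliphatic pathway it was −3.03 for *CYP79F1*, −2.68 for *CYP83A1*, −2.53 for *MAM1*, −1.92 for *IPMI2* and −1.78 for *MYB29*. The other 5 were *IMD1* at −1.65, *BCAT4* at −1.61, *MYB28* at −1.47, *CYP79F2* at −1.3 and *BAT5* at −1.29.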

How the results depend on the processing

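Of the nuclear genes, 1289 were higher and 766 lower in *gun1W* (62.7% of calls higher). Adding 0.1 before the log gave 1157 lower, and adding 5 gave 605 higher and 304 lower. On TPM as deposited 6634 were higher and 163 lower (97.6% of calls higher). Scaling nuclear genes to one sum gave 492 lower (78.3% of calls higher). A covariate for the AT3G06365 share, chosen after seeing the data, gave 1197 lower (54.0% of calls higher). Leaving out 1 library gave 1117 to 1451 higher and 552 to 999 lower. The other filters, quantile normalization, the fit of both groups alone and eBayes without a trend stayed within 1.5 times. On TPM as deposited *PYL4* passed as higher (1.03), the log2 fold change of *EXL2* was 0.0313, and the medians of 16 of the 17 lists below 0 were above 0. The cause was not tested, beyond the shift of 0.82 in the median nuclear gene.

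With the replicate number as a block, 1294 were higher and 750 lower. The deviations of same-numbered *gun1W* and Col-0 libraries from their group means correlated at −0.075, −0.025 and −0.254, so that no shared deviation by number was seen. Whether libraries of the same number were grown or harvested together cannot be read from this. Of 176 list and named genes called against Col-0, 85 kept the call under every alternative. Of 86 called against *gun1G*, 27 did, where 37 calls ended with 5 added and up to 23 when a *gun1G* library was left out, which was chosen after seeing the data. The shoot meristem list gave no value at a TPM of at least 5. The unknown depth limits what low values can show.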
